A study of Mus musculus with 11 samples.

Results

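Histone lysine demethylases are the enzymes that take methyl groups off lysines of the histone tails. The set described here has 10 members, chosen by gene symbol (Kdm1a, Kdm1b, Kdm3a, Kdm4a, Kdm4b, Kdm4c, Kdm5a, Kdm5b, Kdm6a and Kdm6b), of the 24421 genes in the deposited count table, where they were found through their Entrez identifiers. Each was followed over mature mouse eggs (MII oocytes) and 2-cell embryos, with and without Daxx, a histone chaperone that loads the variant H3.3, in the egg.

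All females were Daxx F/F (allele Daxxtm2Led), of mixed C57BL/6J and 129/Sv background and over 8 weeks old. Knockout females carried the transgene Tg(Zp3-cre)93Knw, in which the Zp3 promoter drives Cre in growing oocytes, and control females did not, so the deletion and the transgene cannot be told apart. MII oocytes were taken 20 h after hCG, the hormone that triggers ovulation. The embryos came from in vitro fertilisation with sperm of 8-week-old JF1 males and were collected at 33 h, so that every embryo received an intact paternal Daxx allele: controls were m+z+ and those of knockout mothers m-z+. There were 3 libraries of control oocytes, 3 of knockout oocytes, 3 of control embryos and 2 of embryos from knockout mothers (replicates 2 and 3). Each library was a pool of 50 oocytes or embryos from 2 or 3 females, and total RNA was amplified by PCR.

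Oocyte libraries held 32582998 to 39798586 counts and embryo libraries 17978192 to 25308468, so that 3 counts, the limit that a count of 0 allows, correspond to between 0.0754 and 0.167 CPM, the count scaled to a common library total; such limits cover counting error only. Daxx was at 86.2 to 97.2 CPM in control oocytes and at 7.83 to 8.40 CPM in knockout oocytes, but at 35.2 to 46.7 and 22.8 to 25.5 CPM in the respective embryos. All 9 oocyte markers were above 1 CPM on average in every group, with summed levels of 10621 to 10997 CPM over the 6 oocyte libraries, 1533 to 1858 CPM over control embryos and 2028 to 2048 CPM over embryos of knockout mothers; all 9 had a positive log2 difference between the embryo genotypes (median 0.19) and 0 passed with edgeR (2 at an unadjusted p under 0.05). The 10 markers of the 2-cell stage summed to 3.34 to 4.50 CPM in control and 5.43 to 9.04 CPM in knockout oocytes, with Tdpoz4 at 0 in both, and to 555 to 778 CPM in the embryos. The 14 granulosa and cumulus cell markers summed to 28.8 to 32.4 CPM in control oocytes and 34.4 to 38.8 CPM in knockout oocytes, with Ptx3 at 0 in both, and to 49.9 to 66.8 CPM in embryos, with Inha at 0. Amhr2 alone made 44.6 CPM of that sum in control embryos (0.0291 CPM in control oocytes), while of the 7 of these markers tested in controls 2 rose with stage and 5 fell (median log2 -1.08), Cyp19a1 from 19.0 to 3.83 CPM. The 7 sperm markers summed to 2.67 to 3.62, 6.30 to 7.62, 0.612 to 4.65 and 1.70 to 5.36 CPM in control oocytes, knockout oocytes, control embryos and embryos of knockout mothers. Most of the difference between oocyte genotypes was in Prm2, at 1.85 CPM in control and 5.46 CPM in knockout oocytes (log2 1.54, SE 0.18, edgeR adjusted p = 0.0028), the only marker called between genotypes, with Tnp1, Tnp2 and Smcp at 0 in both. These single markers were picked out after their values were seen. The part of other cells and of these differences in the results was not tested, and, since the libraries are bulk pools, fewer cells of a type and less RNA per cell cannot be told apart.

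The enzymes fall into 2 chemical classes. KDM1A and KDM1B are flavin-dependent amine oxidases that remove methyl groups from mono- and dimethylated H3K4, while the others carry a Jumonji domain, use iron and 2-oxoglutarate, and can also act on trimethylated lysine. KDM5 enzymes act on H3K4, KDM3A on H3K9, KDM4A to KDM4C on H3K9 and, to varying degrees, H3K36, and KDM6 enzymes on H3K27. A growing oocyte lays down broad domains of H3K4 methylation and other marks, and the embryo reshapes them after fertilisation, as stored maternal RNA is degraded and the embryonic genome is switched on, which in the mouse takes place mainly at the 2-cell stage.

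Promoters are printed for 3 of the 4 members with the largest rise from oocyte to embryo and for 2 that fell. Each is the 250 bases upstream of the most upstream start among the gene's RefSeq promoter entries (GRCm38.p6). RefSeq promoter entries were found for 7 of the 10 members (not for Kdm4b, Kdm5a and Kdm6b). Each is written 5′ to 3′ on the gene's own strand, and capitals mark the motifs searched on both strands: the CCAAT box, the GC box GGGCGG, the TATA box TATAAA, the E-box CACGTG, and TAATCC, the core bound by OBOX and other Bicoid-like homeodomain proteins. A match on the opposite strand appears as its reverse complement (GGATTA for the last, CCGCCC for the GC box). The windows are chr1:134559928-134560177 (plus strand) for Kdm5b, chr4:74242247-74242496 (plus) for Kdm4c, chr6:71632918-71633167 (minus) for Kdm3a, chr13:47043249-47043498 (plus) for Kdm1b and chr4:136602724-136602973 (minus) for Kdm1a.
Kdm5b: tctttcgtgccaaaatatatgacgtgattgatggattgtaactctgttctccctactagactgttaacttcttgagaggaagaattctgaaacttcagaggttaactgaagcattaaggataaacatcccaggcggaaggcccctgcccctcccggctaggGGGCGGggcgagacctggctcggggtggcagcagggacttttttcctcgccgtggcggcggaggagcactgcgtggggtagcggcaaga
Kdm4c: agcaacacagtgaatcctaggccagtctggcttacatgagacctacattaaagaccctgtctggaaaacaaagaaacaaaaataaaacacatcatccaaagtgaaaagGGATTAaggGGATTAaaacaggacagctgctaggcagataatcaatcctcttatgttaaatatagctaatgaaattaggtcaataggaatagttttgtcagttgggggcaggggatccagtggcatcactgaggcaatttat
Kdm3a: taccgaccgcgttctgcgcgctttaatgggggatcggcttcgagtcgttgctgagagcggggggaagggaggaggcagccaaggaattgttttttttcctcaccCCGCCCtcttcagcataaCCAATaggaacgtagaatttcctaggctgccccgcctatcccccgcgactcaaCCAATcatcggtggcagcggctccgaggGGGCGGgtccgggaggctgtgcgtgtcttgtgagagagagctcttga
Kdm1b: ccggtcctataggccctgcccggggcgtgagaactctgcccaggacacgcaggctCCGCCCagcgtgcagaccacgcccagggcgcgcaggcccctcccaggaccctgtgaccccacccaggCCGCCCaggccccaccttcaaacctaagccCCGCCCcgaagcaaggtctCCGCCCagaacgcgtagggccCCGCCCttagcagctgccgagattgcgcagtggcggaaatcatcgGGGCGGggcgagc
Kdm1a: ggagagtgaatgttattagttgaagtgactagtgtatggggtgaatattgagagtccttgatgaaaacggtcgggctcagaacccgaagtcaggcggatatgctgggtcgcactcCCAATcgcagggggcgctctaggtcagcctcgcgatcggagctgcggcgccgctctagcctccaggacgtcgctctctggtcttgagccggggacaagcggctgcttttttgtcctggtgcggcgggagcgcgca

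The window of Kdm4c stood apart in composition among the 7, with 39.6% G and C and no CG dinucleotide, which was also the case in 7.87% of the 32851 promoter windows. It held TAATCC 2 times; 0.295% of all windows held 2 or more matches and 6.25% at least 1. A downstream RefSeq start of Kdm4c, with its window at chr4:74251629-74251878 (plus), had 60.4% G and C, 19 CG dinucleotides and no TAATCC. The counts do not show from which start the RNA came. The other 6 windows held 53.6% to 71.6% G and C, above the median of 52.4% over all windows. GGGCGG was found in 4 of the 7 (6 times in Kdm1b, 2 times in Kdm3a, once each in Kdm5b and Kdm6a) and in 32.7% of all windows, CCAAT in 3 (Kdm1a, Kdm3a and Kdm4a) and in 33.9% of all. CACGTG was in the Kdm6a window and in 6.02% of all, and TATAAA in none of the 7 and in 12.4% of all. These matches describe the letters only, and both rising and falling members held GGGCGG and CCAAT. The annotated gene spans of Kdm1a, Kdm1b, Kdm3a and Kdm4a begin inside their windows, and the Kdm6a window lies wholly within its gene span. The windows of these genes thus hold bases from within the annotated gene.

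From oocyte to embryo in the controls, RNA of 4 members rose by more than an order of magnitude (Kdm4c, Kdm5b, Kdm5a and Kdm3a), Kdm4b and Kdm4a rose by less, and Kdm1a, Kdm6a, Kdm6b and Kdm1b fell. With edgeR's quasi-likelihood test and an adjusted p under 0.05, 6 of the 10 members were higher and 4 lower in the embryo, while of all 15577 genes tested 43.1% were higher and 40.0% lower. A change between these stages was therefore the common case, with 83.1% of all genes changed in either direction. All rises and falls here are relative to the rest of the library, and the counts do not give RNA amounts per oocyte or embryo. At least 2-fold changes were seen in 4 members upwards (33.0% of all genes) and in 0 downwards (28.5%). The median log2 change of the members was 0.60, beside 0.07 over all genes. No control oocyte library overlapped any control embryo library in the CPM of any member; over all genes tested, 44.3% were higher and 40.7% lower without overlap. The plot of CPM by library shows each member's level in every library.

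**Figure D1:**
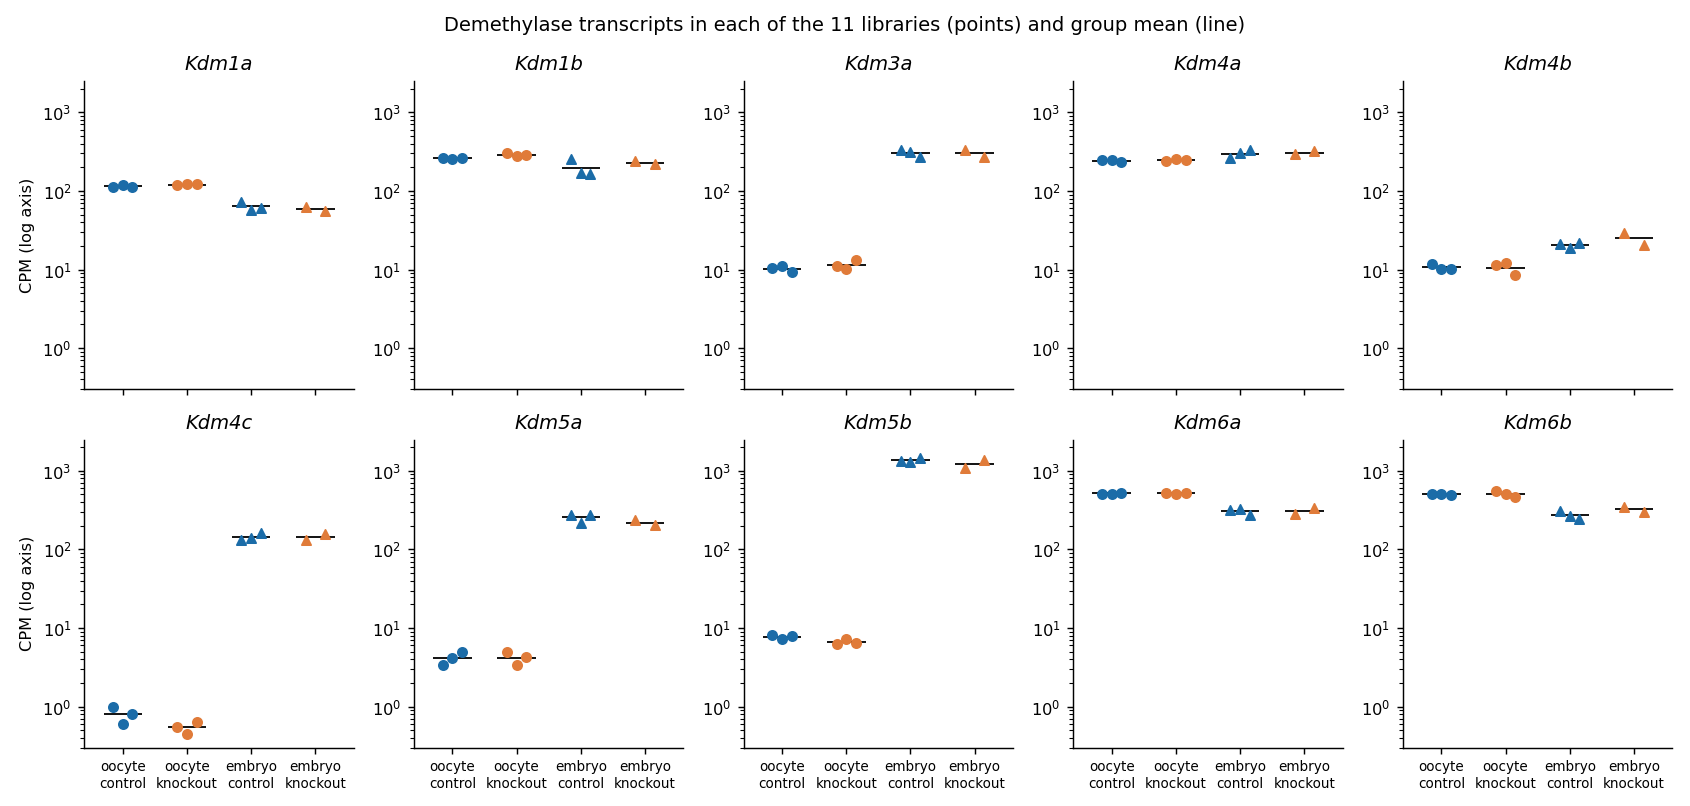
CPM of the 10 demethylases (log axis) in each of the 11 libraries, grouped as control oocytes, knockout oocytes, control embryos and embryos of knockout mothers; points are libraries and lines are group means. Kdm5b goes from 6.31 to 8.07 CPM in the oocyte libraries to 1088 to 1448 CPM in the embryo libraries, and Kdm6a and Kdm6b go the other way.

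Among the H3K4 demethylases of the set, both KDM5 members rose and both KDM1 members fell. Of the KDM5 genes outside the set, the Y-linked Kdm5d rose. Kdm5c, at 99.4 CPM in control oocytes and 111 CPM in control embryos, did not pass. Kdm5b (chr1, 134560178 to 134632878) encodes an enzyme that removes tri- and dimethylation of H3K4 and is known for its part in the loss of broad maternal H3K4 domains in the early embryo. It was at 8.07, 7.26 and 7.89 CPM in control oocytes, 6.31, 7.20 and 6.54 CPM in knockout oocytes, 1344, 1298 and 1448 CPM in control embryos and 1088 and 1386 CPM in embryos of knockout mothers. Every embryo library was far above every oocyte library. The control embryos were 173-fold higher than the control oocytes (95% interval 147 to 204; log2 7.43, SE 0.11, edgeR adjusted p = 2.2e-12), and the knockout libraries gave 7.49 (SE 0.15, edgeR adjusted p = 6.3e-10).

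Kdm5a (chr6, 120364099 to 120444574), first known as a partner of the retinoblastoma protein, was at 3.41, 4.20 and 4.89 CPM in control oocytes, 4.90, 3.40 and 4.29 CPM in knockout oocytes, 275, 217 and 272 CPM in control embryos and 235 and 204 CPM in embryos of knockout mothers. The genotypes overlapped at the oocyte stage and at the embryo stage, and the stages lay far apart. The rise was 59.8-fold in controls (95% interval 46.8 to 76.4; log2 5.90, SE 0.16, edgeR adjusted p = 4.4e-11), and 50.5-fold in the knockout libraries (log2 5.66, SE 0.14, edgeR adjusted p = 1.4e-09). The annotation places 251 exonic bases of Kdm5a opposite Ccdc77, which rose as well, from 6.12 to 30.8 CPM in controls; the sources used here do not say whether the counting used strand, and its part was not tested.

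Kdm1a (chr4, 136550533 to 136602787), the catalytic subunit of the CoREST repressor complex, was at 113, 118 and 114 CPM in control oocytes, 119, 121 and 122 CPM in knockout oocytes, 72.0, 57.2 and 61.5 CPM in control embryos and 61.8 and 55.9 CPM in embryos of knockout mothers. The 3 knockout oocyte libraries were the highest of all 11 and the embryos all lower than any oocyte library. Control embryos held 54.3% of the control oocyte level (log2 -0.88, SE 0.11, edgeR adjusted p = 9.5e-06) and embryos of knockout mothers 47.1% of the knockout oocyte level (log2 -1.08, SE 0.08, edgeR adjusted p = 1.2e-06).

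Kdm1b (chr13, 47043373 to 47085279), the KDM1A paralog needed in the oocyte for DNA methylation at maternally imprinted genes, was at 262, 253 and 265 CPM in control oocytes and 300, 277 and 288 CPM in knockout oocytes. In control embryos it was at 252, 169 and 165 CPM, and in embryos of knockout mothers at 238 and 220 CPM. The first control embryo library thus lay next to the lowest control oocyte library, and the other two lay well below. Control embryos held 74.0% of the oocyte level (log2 -0.43, SE 0.15, edgeR adjusted p = 0.017). Without that first embryo library the log2 change was -0.68 (edgeR adjusted p = 1.6e-05). The call was lost without embryo replicate 2 (-0.35, edgeR adjusted p = 0.071) or replicate 3 (-0.32, edgeR adjusted p = 0.07). It was also lost with RLE scaling (-0.33, edgeR adjusted p = 0.058) and with DESeq2. In the knockout libraries the log2 change was -0.38 (SE 0.07, edgeR adjusted p = 0.00076). Dek, with 505 exonic bases opposite Kdm1b, rose from 136 to 592 CPM in controls, and its part in the Kdm1b counts was not tested.

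All 4 members that act on H3K9 (Kdm3a) or on H3K9 and H3K36 (Kdm4a, Kdm4b and Kdm4c) rose. Demethylases outside the set changed in both directions. Kdm4c (chr4, 74242497 to 74405864), an H3K9 demethylase known from embryonic stem cells, was low in oocytes, with 32, 24 and 31 reads in the control libraries (0.982, 0.603 and 0.807 CPM) and 21, 17 and 24 reads in the knockout libraries (0.550, 0.452 and 0.635 CPM). In control embryos it was at 133, 139 and 164 CPM and in embryos of knockout mothers at 132 and 158 CPM. No embryo library came near the oocyte range, and the 2 genotypes overlapped at both stages. The rise was 180-fold in controls (95% interval 139 to 234; log2 7.49, SE 0.17, edgeR adjusted p = 1.3e-11) and 256-fold in the knockout libraries (log2 8.00, SE 0.16, edgeR adjusted p = 6.3e-10).

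Kdm3a (chr6, 71588970 to 71632990), an H3K9 mono- and dimethyl demethylase known from sperm development, was at 10.3, 10.96 and 9.40 CPM in control oocytes, 11.2, 10.2 and 13.1 CPM in knockout oocytes, 332, 316 and 267 CPM in control embryos and 332 and 273 CPM in embryos of knockout mothers. Embryos of the 2 genotypes covered nearly the same range. The rise was 29.4-fold in controls (95% interval 24.2 to 35.6; log2 4.88, SE 0.13, edgeR adjusted p = 3.3e-11) and 25.4-fold in the knockout libraries (log2 4.67, SE 0.13, edgeR adjusted p = 2.2e-09).

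Kdm4b (chr17, 56325970 to 56403774), a close relative of KDM4A, was low at both stages. It was at 11.8, 10.2 and 10.02 CPM in control oocytes, 11.3, 12.0 and 8.47 CPM in knockout oocytes, 21.4, 19.0 and 21.9 CPM in control embryos and 29.4 and 20.8 CPM in embryos of knockout mothers. Control embryos were 1.91-fold above control oocytes (log2 0.94, SE 0.14, edgeR adjusted p = 5.6e-05) and embryos of knockout mothers 2.29-fold above knockout oocytes (log2 1.20, SE 0.18, edgeR adjusted p = 2e-04).

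Kdm4a (chr4, 118136957 to 118180090), a maternal factor known to keep H3K9 trimethylation off broad H3K4 domains in the oocyte, changed least. It was at 247, 249 and 235 CPM in control oocytes, 240, 258 and 250 CPM in knockout oocytes, 262, 303 and 327 CPM in control embryos and 298 and 318 CPM in embryos of knockout mothers. The embryo libraries were all above the oocyte libraries, by a margin of 262 over 258 CPM where they came closest. The log2 change was 0.26 in controls (SE 0.09, edgeR adjusted p = 0.018) and 0.26 in the knockout libraries (SE 0.08, edgeR adjusted p = 0.013). The control call was lost on leaving out any of the 3 oocyte libraries or embryo replicate 2 or 3 (adjusted p from 0.052 to 0.074), and the knockout call without the first knockout oocyte library (adjusted p = 0.055).

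Both H3K27 demethylases of the set fell. Kdm6a (chrX, 18160862 to 18279936), a subunit of the KMT2C and KMT2D complexes that has a counterpart on the Y chromosome, was at 514, 511 and 521 CPM in control oocytes, 517, 505 and 527 CPM in knockout oocytes, 316, 325 and 276 CPM in control embryos and 286 and 339 CPM in embryos of knockout mothers. The oocyte libraries lay within a narrow band and the embryo libraries were all lower. Control embryos held 58.4% of the oocyte level (log2 -0.78, SE 0.09, edgeR adjusted p = 7.9e-06) and embryos of knockout mothers 58.6% (log2 -0.77, SE 0.10, edgeR adjusted p = 6.1e-05).

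Kdm6b (chr11, 69398508 to 69420367), known as JMJD3 and as an inducible gene in immune cells, was at 514, 500.3 and 490.1 CPM in control oocytes, 555, 503 and 461 CPM in knockout oocytes, 306, 265 and 247 CPM in control embryos and 343 and 301 CPM in embryos of knockout mothers. Its knockout oocyte libraries lay on both sides of the control ones. Control embryos held 53.5% of the oocyte level (log2 -0.90, SE 0.10, edgeR adjusted p = 4e-06) and embryos of knockout mothers 61.6% (log2 -0.70, SE 0.09, edgeR adjusted p = 5.8e-05). An antisense gene, Kdm6bos, covers 286 exonic bases of Kdm6b in the annotation.

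**Figure D2:**
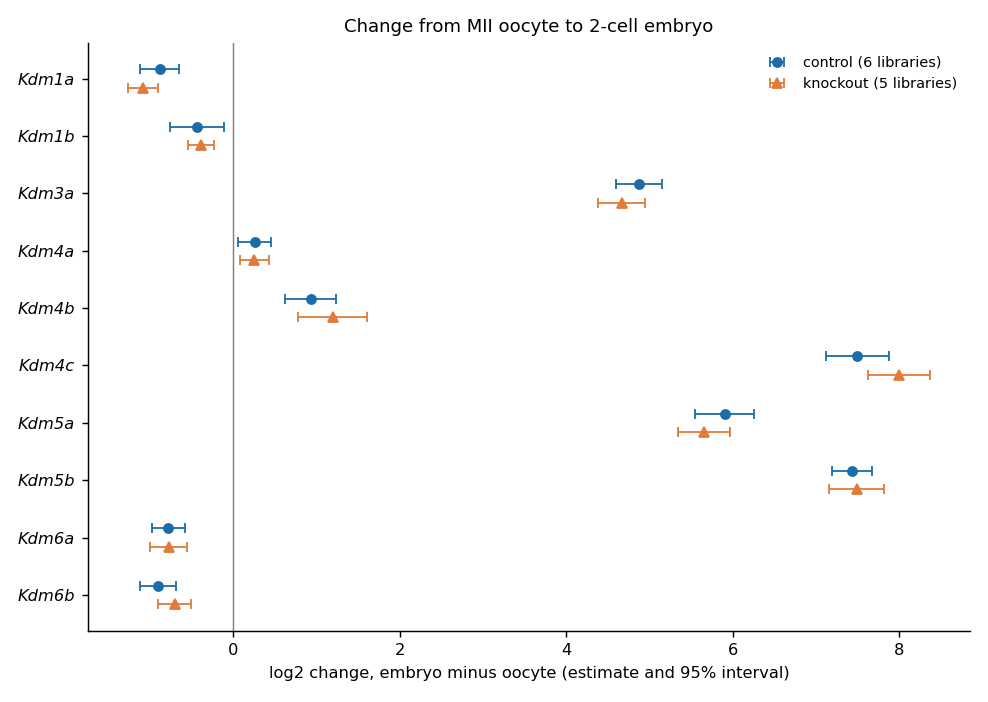
log2 change from MII oocyte to 2-cell embryo of each member with its 95% interval, for the 6 control libraries and the 5 knockout libraries. The 2 sets share no library, and in both 6 members lie above 0 and 4 below.

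The libraries of knockout mothers, which share none with the controls, gave the same 6 members higher and 4 lower (edgeR adjusted p from 6.3e-10 to 0.013), where 42.5% of the 16592 genes tested were higher and 37.7% lower, or 80.2% in either direction. At least 2-fold changes were seen in 5 members upwards (33.2% of all genes) and in 1, Kdm1a, downwards (26.4%). No library of one stage overlapped the other for any member; 46.4% of all genes were higher and 40.5% lower without overlap. The median of the members was 0.73, beside 0.09 over all genes. RLE scaling moved the all-gene median to 0.17 in controls and 0.18 in the knockout libraries, and with it every member kept its direction in both.

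Levels of different genes are compared here as CPM per kb of the length deposited by the authors. In control oocytes the order was Kdm6a (74.0 CPM per kb ± 0.791, SD, n = 3), Kdm6b (68.7 ± 1.64), Kdm1b (50.6 ± 1.23), Kdm4a (49.2 ± 1.60) and Kdm1a (37.4 ± 0.880), followed at a distance by Kdm4b (1.88 ± 0.167), Kdm3a (1.52 ± 0.116), Kdm5b (1.01 ± 0.0552), Kdm5a (0.308 ± 0.0550) and Kdm4c (0.156 ± 0.0371). Of these neighbours, only Kdm1b and Kdm4a overlapped between libraries. Kdm6a was above 95.4% and Kdm4c above 26.7% of the 18787 genes with a read in control oocytes. The top and the bottom of the oocyte order were thus set apart by a gap between Kdm1a and Kdm4b.

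In control embryos Kdm5b came first, at 177 CPM per kb (SD 10.01, n = 3), above 98.9% of the 20695 genes with a read. Kdm4a followed at 60.0 CPM per kb (SD 6.65, n = 3), then Kdm3a (45.4), Kdm6a (43.9), Kdm1b (38.0), Kdm6b (37.4), Kdm4c (28.5), Kdm1a (20.7), Kdm5a (18.9) and Kdm4b (3.66). Libraries of neighbours overlapped from Kdm3a to Kdm6b and between Kdm1a and Kdm5a. Exonic lengths of GENCODE M21 were an alternative added after the data were seen. With them Kdm5b stayed highest in control embryos (82.3 CPM per kb, before Kdm4a at 51.4). The order below changed in part. Kdm6b (39.2) came before Kdm3a (37.1), Kdm6a (36.5) and Kdm1b (35.6), and Kdm5a (18.0) before Kdm1a (12.3). In control oocytes Kdm6b (72.1) came before Kdm6a (61.4).

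As a share of the summed CPM per kb of the 10 members, the H3K27 enzymes went from 50.1% ± 0.236 (SD, n = 3) in control oocytes to 17.2% ± 1.49 (SD, n = 3) in control embryos. The H3K4 enzymes went from 31.4% ± 0.392 to 53.7% ± 1.88, and the H3K9 and H3K36 enzymes from 18.5% ± 0.522 to 29.1% ± 1.69. Kdm3a, which acts on H3K9, is counted in this last group and made 9.59% of the total in control embryos. Within the H3K4 enzymes, the KDM1 pair went from 30.9% to 12.4% and the KDM5 pair from 0.461% to 41.4%, of which Kdm5b alone made 37.4%. In knockout oocytes the H3K27, H3K4 and H3K9 with H3K36 shares were 48.8%, 32.8% and 18.4%, and in embryos of knockout mothers 19.0%, 51.2% and 29.9%. With GENCODE lengths the H3K27 share was 53.5% in control oocytes and 22.2% in control embryos, and the H3K4 share 28.2% and 43.3%. Kdm5b then made 24.1% ± 1.53 (SD, n = 3) in control embryos, and the KDM5 pair 29.4%. These shares depend on the gene lengths taken, and both sets of lengths gave the same directions. They cover the 10 members only, and demethylases outside the set, which changed in both directions, are not counted. Among these, Kdm5c and Kdm7a were at 9.02 and 38.4 CPM per kb in control oocytes and at 10.1 and 52.6 in control embryos. In reads, the 10 members together made 1669 CPM (SD 13.9, n = 3) in control oocytes, 1715 CPM (SD 44.9, n = 3) in knockout oocytes, 3224 CPM (SD 105, n = 3) in control embryos and 3159 CPM (SD 164, n = 2) in embryos of knockout mothers.

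**Figure D3:**
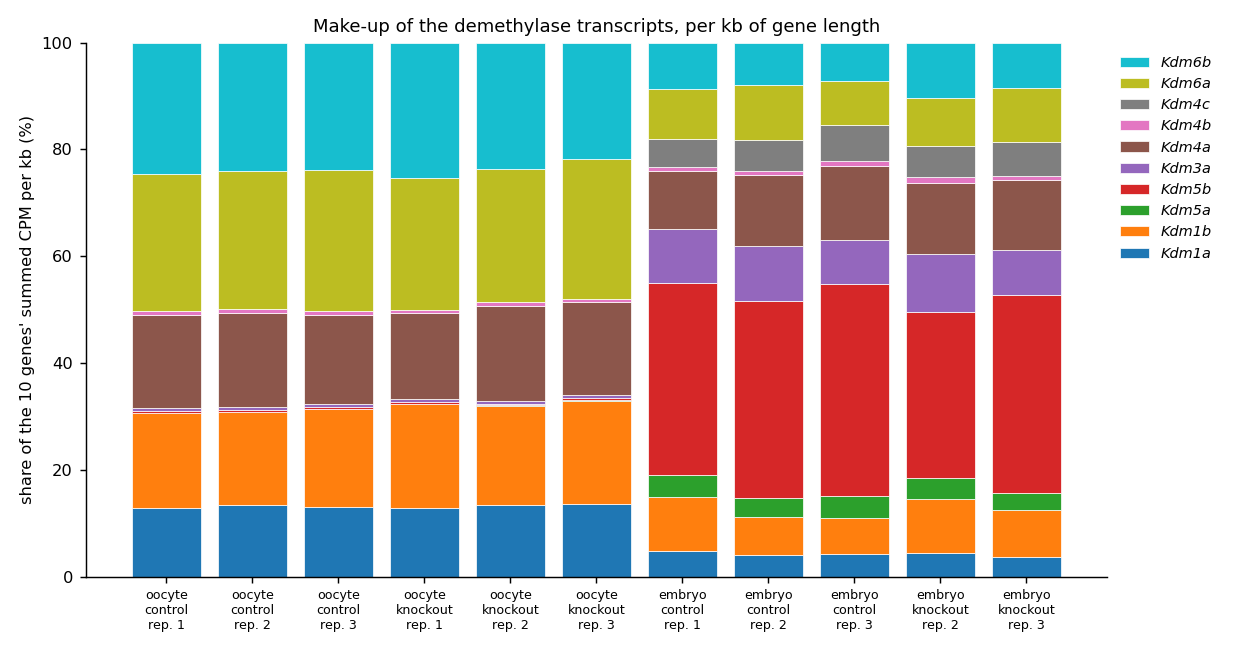
Share (%) of the summed CPM per kb of the 10 members held by each member, as 1 stacked bar for each of the 11 libraries. The share of the H3K27 enzymes Kdm6a and Kdm6b goes from 50.1% in control oocytes to 17.2% in control embryos, while Kdm5b goes from 0.353% to 37.4%.

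The members' courses over the 11 libraries were compared by the root mean square difference of log2(TMM-scaled CPM + 1). Each gene was set to its own mean. This is a description, and the libraries share stage and depth. Kdm6a and Kdm6b were each other's nearest (0.146), and Kdm1a (0.158) and Kdm1b (0.219) were nearest to Kdm6b. Kdm4a and Kdm4b paired (0.412), as did Kdm4c and Kdm5b (0.437) and Kdm3a and Kdm5a (0.477). The next nearest member was almost as close for Kdm4a (0.420) and Kdm1a (0.161), and further off for Kdm4b (0.738).

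No member passed the test between genotypes at either stage. In oocytes 0 of 10 members passed with edgeR (1 at an unadjusted p under 0.05; 0 with DESeq2 and 0 with limma-voom), while 0.583% of the 14235 genes tested did and 10.3% were under 0.05 before adjustment. Kdm1b was the one under 0.05 before adjustment, with every knockout library above every control library and a log2 difference of 0.13 (SE 0.04, edgeR adjusted p = 0.3). Its 95% interval ran from 1.02- to 1.17-fold. All knockout libraries were also above the controls for Kdm1a (log2 0.05, SE 0.04, edgeR adjusted p = 0.77) and below them for Kdm5b (log2 -0.23, SE 0.11, edgeR adjusted p = 0.51). Such separation was found for 10.1% of all genes upwards and 5.66% downwards. The least certain member was Kdm4c, at 0.797 ± 0.190 CPM (SD, n = 3) in control and 0.546 ± 0.0918 CPM (SD, n = 3) in knockout oocytes, with a log2 difference of -0.55 (SE 0.31, 95% interval -1.23 to 0.12, edgeR adjusted p = 0.6). For 9 of the 10 the interval lay within 1.5-fold either way, Kdm4c, with 17 to 32 reads a library, being the exception.

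In embryos 0 of 10 members passed (0 at an unadjusted p under 0.05; 0 with DESeq2 and 0 with limma-voom), and of 15414 genes tested 0.0260% did and 3.19% were under 0.05 before adjustment. Libraries of the 2 genotypes overlapped for all 10 members, while 11.4% of all genes were higher and 6.38% lower without overlap. The log2 differences that came nearest to a call were those of Kdm5a (-0.25, SE 0.14), Kdm6b (0.20, SE 0.14) and Kdm4b (0.24, SE 0.20), and edgeR gave all 10 members an adjusted p of 1. Intervals of the 10 spanned -0.55 to 0.65 on the log2 scale, and 9 lay within 1.5-fold, Kdm4b reaching 1.57-fold. The intervals of the embryos were wider than those of the oocytes for 8 of the 10 (not Kdm4c and Kdm5a), as the plot of genotype differences shows.

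**Figure D4:**
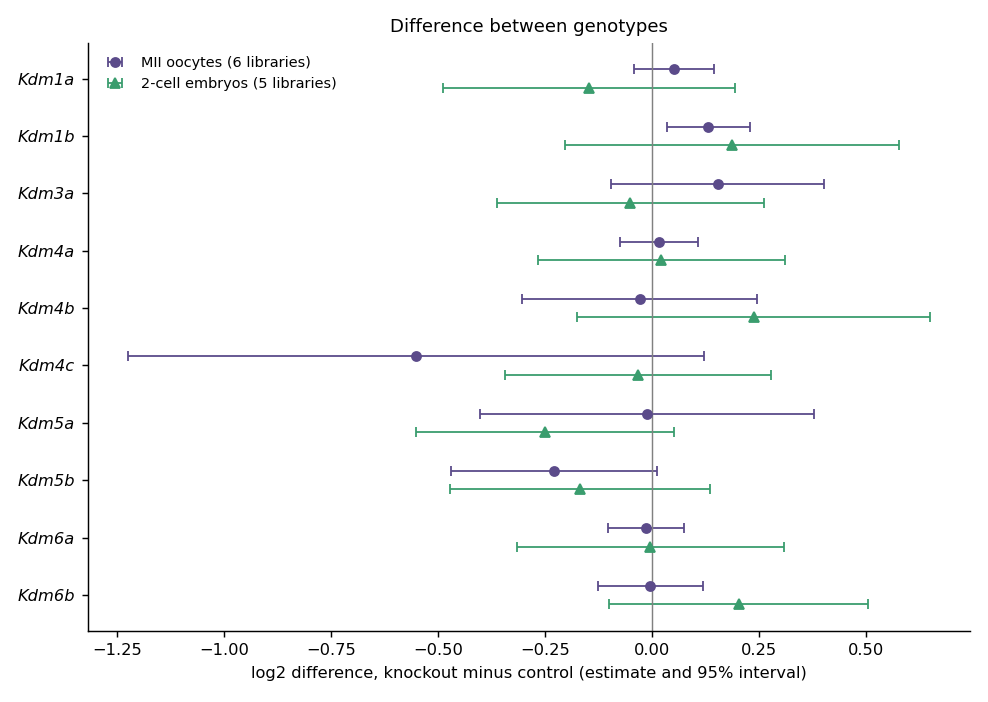
log2 difference of knockout minus control for each member with its 95% interval, in MII oocytes (6 libraries) and 2-cell embryos (5 libraries). All intervals but that of Kdm1b in oocytes include 0, and Kdm4c in oocytes has the widest, from -1.23 to 0.12.

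Whether the genotype difference itself differed between stages was tested in 1 fit over the 11 libraries. Again 0 of 10 members passed (0 at an unadjusted p under 0.05; 0 with DESeq2 and 0 with limma-voom), beside 0.0118% of 17018 genes, and 5.41% were under 0.05 before adjustment. Kdm4c had the smallest p, with a stage difference of 0.50 (SE 0.27, 95% interval -0.07 to 1.06, edgeR adjusted p = 0.94). Intervals lay within 1.5-fold for 6 of the 10.

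The other 18 demethylase genes and relatives listed changed in both directions with stage in controls. Of them 12 rose and 5 fell with edgeR, with a median log2 change of 0.89, also with Kdm5d, which had no read in oocytes, at its lower bound. Riox1, a JmjC oxygenase of the nucleolus, went from 0.111 to 40.7 CPM (log2 8.47, edgeR adjusted p = 9.1e-10). Hr, known for its part in hair growth, went from 0.313 to 7.77 CPM (4.58). Control oocyte libraries held 3 to 5 reads of Riox1 and 5 to 20 of Hr, so the sizes of these 2 rises are uncertain. Jmjd6 (72.1 to 227 CPM, log2 1.63), Kdm3b (32.5 to 98.2, 1.57), Kdm8 (4.62 to 13.8, 1.55), Kdm4d (0.386 to 0.938, 1.27) and Kdm2a (69.9 to 151, 1.09) also rose. So did Jmjd1c (37.6 to 61.6, 0.69), Kdm7a (367 to 502, 0.43), Riox2 (33.3 to 43.6, 0.37) and the Y-linked Kdm5d and Uty. The 5 that fell were Hspbap1 (55.3 to 14.8 CPM, log2 -1.92), Kdm2b (747 to 219, -1.79), a subunit of a variant Polycomb complex, Phf2 (61.3 to 29.0, -1.11), Jarid2 (256 to 162, -0.69), a partner of PRC2 without known demethylase activity, and Phf8 (280 to 217, -0.39). Kdm5c, the X-linked KDM5 member, was at 99.4 and 111 CPM and did not pass (log2 0.13, edgeR adjusted p = 0.16). In the knockout libraries 11 rose and 5 fell, with a median of 1.04.

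Partners of the KDM1 enzymes were divided. Of 13 tested in controls, 6 rose and 3 fell (median log2 0.42). Hdac1, which like Hdac2 serves as a deacetylase of CoREST complexes, rose from 2.70 to 88.2 CPM (5.00), Rcor2 from 9.02 to 127 CPM (3.79) and Rcor1 from 75.3 to 214 CPM (1.48). Hdac2, named after its values were seen, was at 95.4 and 102 CPM and did not pass (log2 0.08, edgeR adjusted p = 0.48). Among those that fell were Gse1 (489 to 137 CPM, -1.86) and Glyr1 (218 to 95.8, -1.21), a cofactor of KDM1B. Of 14 tested in the knockout libraries, 7 rose and 3 fell (median 0.39).

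The methyltransferases for the same marks, listed together with complex subunits, partners and regulators, also changed in both directions. Of the 16 genes for H3K4, 5 rose and 9 fell in controls (median log2 -0.26). Among those that rose were Prdm9 (1.27 to 32.5 CPM, 4.64), Setd7 (0.0635 to 5.66, 6.36) and Kmt2c (665 to 1933, 1.52). Setd7 in control oocytes lay below the lowest limit of 0.0754 CPM for 3 counts, so the size of its rise is uncertain. Among those that fell were the complex subunits Rbbp5 (96.7 to 18.4, -2.42) and Cxxc1 (87.2 to 19.7, -2.17), and Smyd3 (38.7 to 14.7, -1.43). Of 10 for H3K9, 4 rose and 4 fell (median 0.02): Ehmt2 (1.69 to 31.8 CPM, 4.20), Setdb2 (41.8 to 139, 1.70) and Suv39h1 (73.0 to 154, 1.05) rose, and Setdb1 (486 to 173, -1.52), Prdm16 (71.3 to 15.6, -2.22) and Suv39h2 (220 to 133, -0.74) fell. Of 12 for H3K27, 5 rose and 6 fell (median -0.16), with Mtf2 (62.6 to 285 CPM, 2.16), Suz12 (815 to 1727, 1.06) and Aebp2 (71.9 to 123, 0.75) higher and Rbbp7 (1051 to 283, -1.91), Eed (204 to 125, -0.73) and Ezhip (1655 to 299.6, -2.49), an inhibitor of PRC2, lower. Of 7 for H3K36, 5 rose and 1 fell (median 0.42): Setd2 (358 to 1341 CPM, 1.88), Ash1l (71.5 to 140, 0.95) and Nsd3 (53.0 to 91.9, 0.77) were among the higher ones and Smyd2 (7.66 to 0.844, -3.21) was the lower one. The knockout libraries gave 6 and 6 for H3K4, 4 and 4 for H3K9, 5 and 6 for H3K27 and 5 and 1 for H3K36. For genotype, edgeR called 0 genes of all 6 of these lists in oocytes, in embryos and in the test between stages; at an unadjusted p under 0.05 the list with most had 2, and in oocytes DESeq2 called 1 KDM1 partner lower and edgeR without control replicate 3 called 1 H3K4 gene higher.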

How the data were processed

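RNA-seq was measured in 11 libraries of 4 groups. The authors deposited whole-number read counts for 24421 genes under Entrez identifiers, of which 24387 matched a symbol in the RefSeq GRCm38.p6 table (the 34 others held at most 0.0325% of reads). Per the submitters' processing notes, STAR 2.5.0a, SAMtools and GRCm38/mm10 were used; these sources give neither the counting program nor its use of strand. Gene lengths (other) are as deposited by the authors.

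Counts were tested with edgeR 4.0.16 (R 4.3.3): quasi-likelihood F test, robust, TMM scaling, filterByExpr by group (minimum count 10, total 15), Benjamini-Hochberg adjustment over all genes, threshold 0.05. Each comparison was fitted on its own libraries, and the test between stages on all 11. Log2 changes come from these fits, and the SE is the size of the change over the square root of F. The 95% intervals use the fit's degrees of freedom. CPM scales each count to the total of its library in the table. The tests were tried before use on simulated counts in which few genes changed. That setting differs from the stage comparisons, where most genes changed, so it does not cover them. Replicate pairs differed by more than sampling noise (chi-square per degree of freedom 5.10 to 37.2), so none was merged; each is a separate pool, and p-values measure the spread between pools. DESeq2 1.42.0, limma 3.58.1 (voom), other scalings and filters, a replicate block and leaving out each library were alternatives.

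The members, lists and tests were chosen with earlier results of these data known. All genes of the other demethylase list are named, and of the remaining lists up to 3 genes a direction with the smallest p in the control stage comparison. One gene that this rule names is not reported here.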

Additional observations from a re-analysis of the deposited data

Results flagged for a closer look

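The genotype difference of Daxx, the deleted gene, differed between the stages. Its log2 difference, knockout minus control, was -3.52 in oocytes (SE 0.07, edgeR adjusted p = 1.2e-11; 92.6 CPM in control and 8.14 CPM in knockout). In embryos it was -0.75 and did not pass (SE 0.19, edgeR adjusted p = 0.54; 39.7 CPM in control and 24.2 CPM in knockout). The difference between the stages was 2.76 (SE 0.16, edgeR adjusted p = 3.4e-07) in 1 fit over the 11 libraries, and that test is what drew attention to it. The embryos of knockout mothers carry a paternal Daxx allele, whose part was not tested.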

How the results depend on the processing

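The number of members called with edgeR was 10 in both stage comparisons and 0 in the 3 genotype tests. Leaving out 1 library gave 8 to 10 in controls and 9 to 10 in the knockout libraries, and 0 in each genotype test; DESeq2 and RLE scaling gave 9 in controls. The calls lost were those of Kdm1b and Kdm4a; the other 8 passed under all 14 control and 13 knockout alternatives, and no called member changed sign. With the replicate number as a block, members called were 10 in the control stage comparison, 9 in the knockout one (Kdm4a 0.22, adjusted p = 0.06) and 0 in each genotype test. Deviations of same-numbered libraries correlated at -0.218, 0.240 and 0.0767 between oocyte genotypes, and not every library correlated best with its own number. The labels do not say whether equal numbers share females or a day, and so few libraries cannot decide it. The all-gene count for oocyte genotype was 83, against 223 with DESeq2, 57 with limma-voom, 183 without a count filter, 22 in a fit of all libraries and 21 to 157 on leaving out 1 library; for embryo genotype it was 4, against 10, 2, 32, 13 and 0 to 8, and for the test between stages 2, against 4 with DESeq2 and 1 to 3 on leaving out 1. The cause was not tested. Depth limits Kdm4c in oocytes, with 17 to 32 reads a library.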

Other observations

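Both Y-linked genes in the list of other demethylases and relatives, which an oocyte does not carry, were read in embryos. Kdm5d had 0 reads in the 3 control and in the 3 knockout oocyte libraries, and was at 3.70 ± 0.967 CPM (SD, n = 3) in control embryos and 2.78 ± 0.916 CPM (SD, n = 2) in embryos of knockout mothers, at least 136-fold and at least 105-fold higher than a floor of 3 counts over each oocyte group. Uty, the Y-linked counterpart of Kdm6a, had 2 reads over the control and 5 over the knockout oocyte libraries, and was at 17.9 ± 4.43 CPM (SD, n = 3) and 16.9 ± 7.25 CPM (SD, n = 2) in the embryos. How the authors' counting divided reads that fit both a Y-linked gene and its X-linked counterpart (Kdm5c or Kdm6a) is not known. The number of male embryos in each pool was not analysed here.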
